A study of Mus musculus with 6 samples.

Results

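The genes described here were 4 ligands of the epidermal growth factor (EGF) family, Nrg1, Hbegf, Areg and Ereg, out of 34187 gene features measured by single-cell RNA sequencing in mouse pancreatic tumors. They were followed in macrophages, neutrophils, regulatory T (Treg) cells, fibroblasts and tumor cells from 3 treatment groups, PBS, mono-IL10 and IL10/2-Trikine. The set was chosen by a measured value, the Nrg1 RNA of macrophages that were frequent after mono-IL10. The comparisons of mono-IL10 with the other groups in macrophages are therefore given as descriptions without a test.

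EGF family ligands are made as membrane proteins, released from the cell surface by metalloproteases such as ADAM17, and bound by receptors of the ErbB family on the same or neighboring cells. Areg binds the EGF receptor, Hbegf and Ereg bind the EGF receptor and ErbB4, and Nrg1 binds ErbB3 and ErbB4. Receptor binding activates the ERK and PI3K pathways, and the EGF receptor is known to take part in the formation of pancreatic tumors. Macrophages and Treg cells are known sources of amphiregulin, the product of Areg, during tissue repair.

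The mice carried subcutaneous tumors of 6694c2vTRP1, a single pancreatic tumor line. PBS was the vehicle control, mono-IL10 is a monomeric IL-10 and IL10/2-Trikine is an engineered cytokine that joins IL-10 receptor chains with an IL-2 receptor chain. The first of 2 doses was given on day 8 and tumors were taken on day 14, with 26 µg of mono-IL10 or 30.6 µg of IL10/2-Trikine per mouse and dose. Cells held by CD45 beads were marked with 1 hashtag antibody per mouse, and the 5 mice of a treatment were loaded as 1 library. A mouse was the replicate, but treatment and library cannot be told apart, since all mice of a treatment shared 1 library. For this tumor model the study's methods name C57BL/6 mice of both sexes at an age of 6 to 8 weeks, and the sex of each mouse was not given in the sources used here.

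The product of each of these genes folds around 6 cysteines that form the EGF-like domain. The coding stretches that hold this motif were read from the annotated transcripts of GRCm38 and are shown for Areg, Ereg and Nrg1 because they are what unites the family. The stretch of Hbegf was not analysed here. The 6 cysteine codons are in capitals. Areg and Ereg had the same spacing between them, with 7, 4, 10, 1 and 8 codons, whereas Nrg1 had 7, 5, 13, 1 and 8. Both of the former stretches were divided between exons 3 and 4 of their genes, on the plus strand within chr5:91143614-91144364 for Areg and chr5:91088496-91089111 for Ereg. The Nrg1 stretch was on the minus strand within chr8:31837698-31849398. Of the 10 coding transcripts of Nrg1 with the motif, 7 ended as in the first Nrg1 line and 3 as in the second, which are the alternative ends known as beta and alpha, and the counts per gene do not separate them.
Areg: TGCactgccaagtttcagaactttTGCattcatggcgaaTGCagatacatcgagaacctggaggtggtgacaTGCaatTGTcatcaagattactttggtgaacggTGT
Ereg: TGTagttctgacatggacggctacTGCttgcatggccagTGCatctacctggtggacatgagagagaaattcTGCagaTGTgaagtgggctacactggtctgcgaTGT
Nrg1, first: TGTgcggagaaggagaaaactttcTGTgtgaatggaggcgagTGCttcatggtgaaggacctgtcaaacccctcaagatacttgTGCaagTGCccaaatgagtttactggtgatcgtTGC
Nrg1, second: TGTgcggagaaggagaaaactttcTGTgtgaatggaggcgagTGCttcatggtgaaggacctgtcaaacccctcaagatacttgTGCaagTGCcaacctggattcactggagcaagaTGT

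Areg (chr5:91139599-91148432) and Ereg (chr5:91074622-91093646) lay 45952 bases apart in GRCm38 and in the same direction, while Nrg1 spanned 1069479 bases of chromosome 8. These positions come from the annotation, since the deposited counts were made on GRCm39. Nrg1 was the feature ENSMUSG00000062991, and a second feature with the same symbol had 0 UMIs.

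The libraries held 30528 to 55504 barcodes with 364814102 to 515236552 gene UMIs, and 92851 of 130444 barcodes were clustered after the filters. Libraries shared 408 to 700 barcodes, at most 1.58% of a library. Hashtags called 8.5% to 12.2% of the cells doublets, which were left out, and 17.9% to 32.1% negative, which entered no value per mouse. Cell classes were named from markers. The class called macrophages here was named from a list of macrophage or monocyte markers. It included a cluster led by Ly6c2, Vcan and Plac8, genes known from monocytes. This cluster was 9.66%, 7.56% and 5.27% of the class with PBS, mono-IL10 and IL10/2-Trikine. Macrophages had 8 of 8, neutrophils 7 of 7, fibroblasts 7 of 7, tumor cells 5 of 8 and Treg cells 6 of 6 of their markers at 20 CPM (UMIs per 1000000 summed UMIs) or more, and 22 of 60 clusters, with 26.4% of the cells, stayed unnamed. Tumor cells and fibroblasts were numerous despite the CD45 beads, and Ptprc, the gene of CD45, was at 8.09 CPM in tumor cells and 764 CPM in macrophages. Cells without a mouse were 4983 of 10518, 3128 of 7864 and 11830 of 22066 tumor cells with PBS, mono-IL10 and IL10/2-Trikine. In the same order they were 201 of 615, 167 of 468 and 479 of 941 fibroblasts, and 377 of 8167, 158 of 6069 and 526 of 5335 macrophages. Values per mouse of tumor cells and fibroblasts thus leave out many cells, unequally by treatment. The median UMIs per macrophage were 4867, 6053 and 2749 with PBS, mono-IL10 and IL10/2-Trikine, and those per tumor cell 19771.5, 28555.5 and 8488. Levels below are UMIs summed per mouse and class, in CPM, and a gene's level is compared only with that of the same gene in other cells.

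Each ligand had its own order among the 5 cell classes. Nrg1 was highest in macrophages, at 994 ± 369 CPM (SD, n = 15), then in fibroblasts at 266 ± 54.2 (n = 15) and neutrophils at 99.9 ± 96.1 (n = 10), then in tumor cells at 60 ± 11.1 (n = 15) and Treg cells at 14.9 ± 31.4 (n = 12). The values of macrophages and fibroblasts did not overlap, whereas neutrophils, at 26.9 to 338 CPM, covered those of fibroblasts and tumor cells in part. Hbegf was highest in tumor cells, at 1130 ± 136 CPM, followed by fibroblasts at 212 ± 58.9, neutrophils at 164 ± 70.0 and macrophages at 146 ± 39.8, which overlapped each other, and Treg cells at 16.8 ± 21.4. Ereg, which encodes epiregulin, was at 117 ± 17.6 CPM in tumor cells, 31.6 ± 17.7 in fibroblasts and 3.66 ± 2.48 in macrophages, and 1 of 10 neutrophil samples and 0 of 12 Treg samples held a count. The counts of 0 in the Treg libraries allow up to 16.5, 17.1 and 34.9 CPM with PBS, mono-IL10 and IL10/2-Trikine (exact Poisson 95%). Areg was at 1234 ± 826 CPM in Treg cells, 380 ± 76.8 in tumor cells, 232 ± 77.7 in macrophages, 53.9 ± 70.6 in neutrophils and 29.9 ± 19.1 in fibroblasts, and the range of Treg cells, 124 to 2740 CPM, overlapped those of tumor cells and macrophages. Thus, among these classes, the ligand of ErbB3 and ErbB4 led in macrophages, and the ligands of the EGF receptor led in tumor cells or Treg cells.

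**Figure D1:**
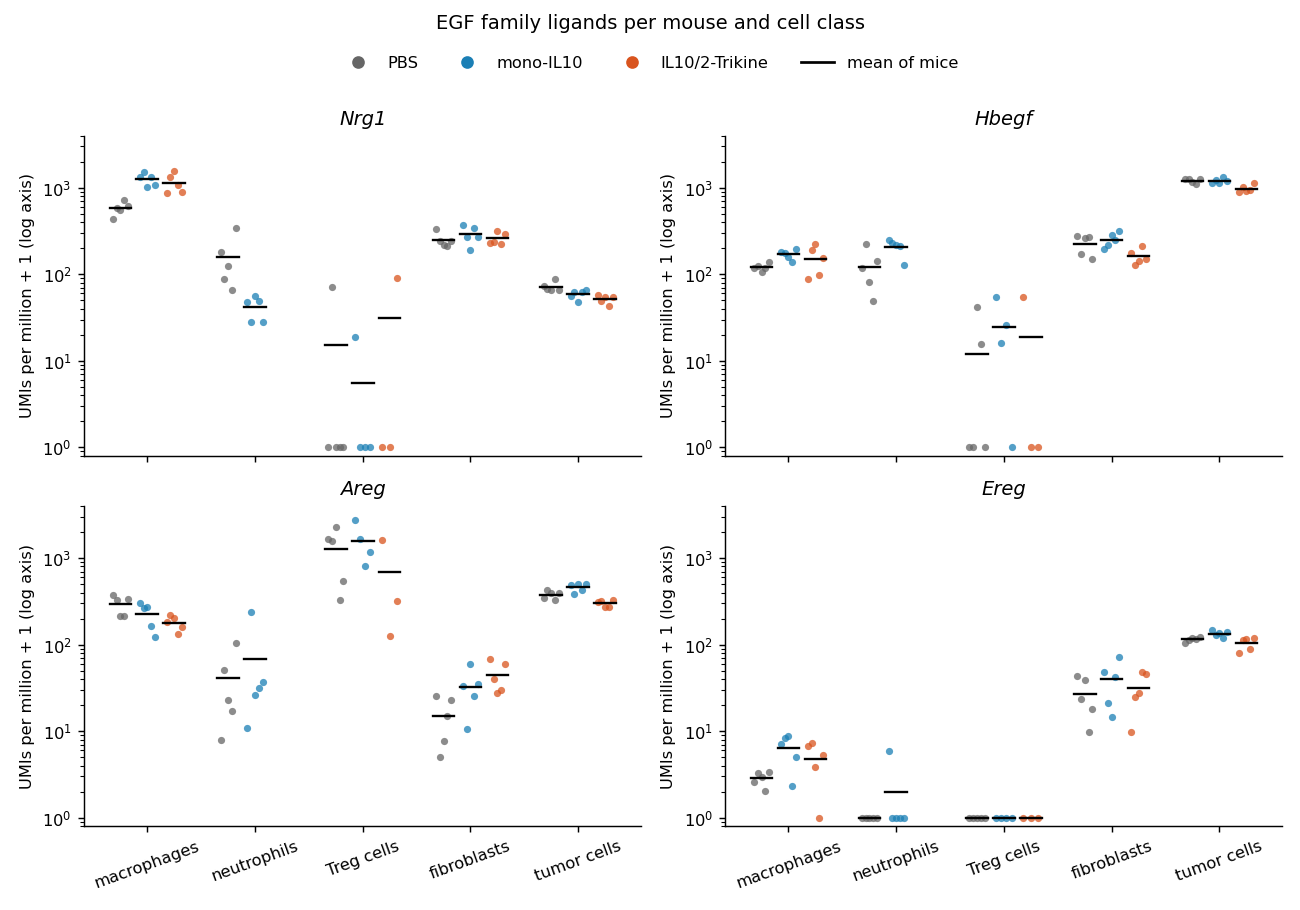
Level of each ligand in the cell classes (CPM with 1 added, log axis), with a point for each mouse that entered and a black bar for the mean of a treatment group. Nrg1 is highest in macrophages, where all mice given a cytokine lie above all PBS mice, and Hbegf and Ereg are highest in tumor cells.

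Nrg1 in macrophages was higher in the mice given either cytokine than in the PBS mice. The 5 PBS mice had 434, 585, 549, 718 and 610 CPM, the mono-IL10 mice 1330, 1519, 1008, 1342 and 1077 CPM, and the IL10/2-Trikine mice 866, 1330, 1575, 1065 and 895 CPM. Every mouse of both cytokine groups was above every PBS mouse, and the cytokine groups overlapped. The means were 579 ± 103, 1255 ± 210 and 1146 ± 302 CPM (SD, n = 5). Against PBS, Nrg1 rose 1.96-fold with IL10/2-Trikine, by a log2 of 0.97 (SE 0.16, edgeR quasi-likelihood adjusted p = 0.000254). This comparison shares its PBS mice with the contrast by which Nrg1 was chosen. The mono-IL10 mice were 2.28-fold above PBS (log2 1.19, SE 0.16), and IL10/2-Trikine lay at a log2 of −0.22 (SE 0.16) from mono-IL10, both without a test. That last value was −0.60 when only cells with 2000 or more genes were used. Markers of other cells moved in these macrophages. T cell markers summed to 14.5 to 21.3 CPM per mouse with PBS, 5.57 to 19.2 CPM with mono-IL10 and 29.7 to 56.6 CPM with IL10/2-Trikine, and tumor epithelial markers to 31.4 to 89.2, 25.8 to 46.8 and 59.7 to 116 CPM. Nrg1 itself was lower in tumor cells than in macrophages, and found in few T cells. The part of these markers in the Nrg1 differences was not tested.

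More macrophages held an Nrg1 UMI after either cytokine. The share was 57.4% ± 4.80 with PBS, 76.3% ± 6.24 with mono-IL10 and 65.2% ± 5.32 with IL10/2-Trikine (SD, n = 5). When each macrophage with at least 2000 UMIs was reduced at random to 2000 UMIs, the shares became 42.9% ± 5.16, 61.9% ± 5.92 and 59.8% ± 6.24. Macrophages with fewer UMIs were left out there, so these shares describe a smaller set of cells than the shares above. T cells, which should lack Nrg1, were at 0.695% ± 1.39 with PBS (n = 4) and 1.60% ± 1.29 with mono-IL10 (n = 5) after the same thinning, from median depths of 2578.5 and 3545 UMIs. The macrophage shares with PBS and mono-IL10 were thus far above the level in T cells. With IL10/2-Trikine no mouse had enough T cells. In that library, without thinning, 3 of 40 T cells (7.5%) held an Nrg1 UMI, against 63.3% of the macrophages. The T cell shares without thinning were 0.575% with PBS and 3.07% with mono-IL10.

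Macrophage clusters differed widely in Nrg1, and the members were not among the genes used for clustering. Summed over the 3 libraries, Nrg1 in 12 clusters ranged from 449 CPM, in cells led by Gpnmb, Cd36 and Lpl, to 2373 CPM. The cluster at the top had 334 cells and was led by Gm52988, Malat1, Gm47507, Zdhhc14, St18, Lrmda, Vav3, Psd3, Eldr and Dnah17. It was followed, at 1833 CPM, by a cluster of 2025 cells led by Fam169b, Gja1 and Pgap6, which also had high Sox4 and Mmp9. This second cluster was 2.12% of the macrophages with PBS, 25% with mono-IL10 and 6.28% with IL10/2-Trikine, as shares of each library. A cluster with high Top2a and Mki67, genes of dividing cells, had 558 CPM and was largest with PBS, at 21.0%, 4.51% and 3.26% of the macrophages in the same order. The cluster with high Lyve1, Cd163 and Folr2, markers known from tissue-resident macrophages, had 261 CPM with PBS, 933 with mono-IL10 and 742 with IL10/2-Trikine as means per mouse. The order of the clusters was not the same in each group. With PBS alone the Fam169b cluster, at a mean of 1633 CPM, was above the Gm52988 cluster at 1439 CPM, and the Lyve1 cluster was below the Gpnmb cluster at 288 CPM.

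Within clusters PBS stayed the lowest group. Mean Nrg1 was higher with mono-IL10 than with PBS in 11 of 11 clusters that could be compared, with a median ratio of 1.73, and higher with IL10/2-Trikine than with PBS in 9 of 9, with a median ratio of 2.07. IL10/2-Trikine was above mono-IL10 in 5 clusters and below it in 4. These counts have no test, because clusters of the same mice are not replicates.

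**Figure D2:**
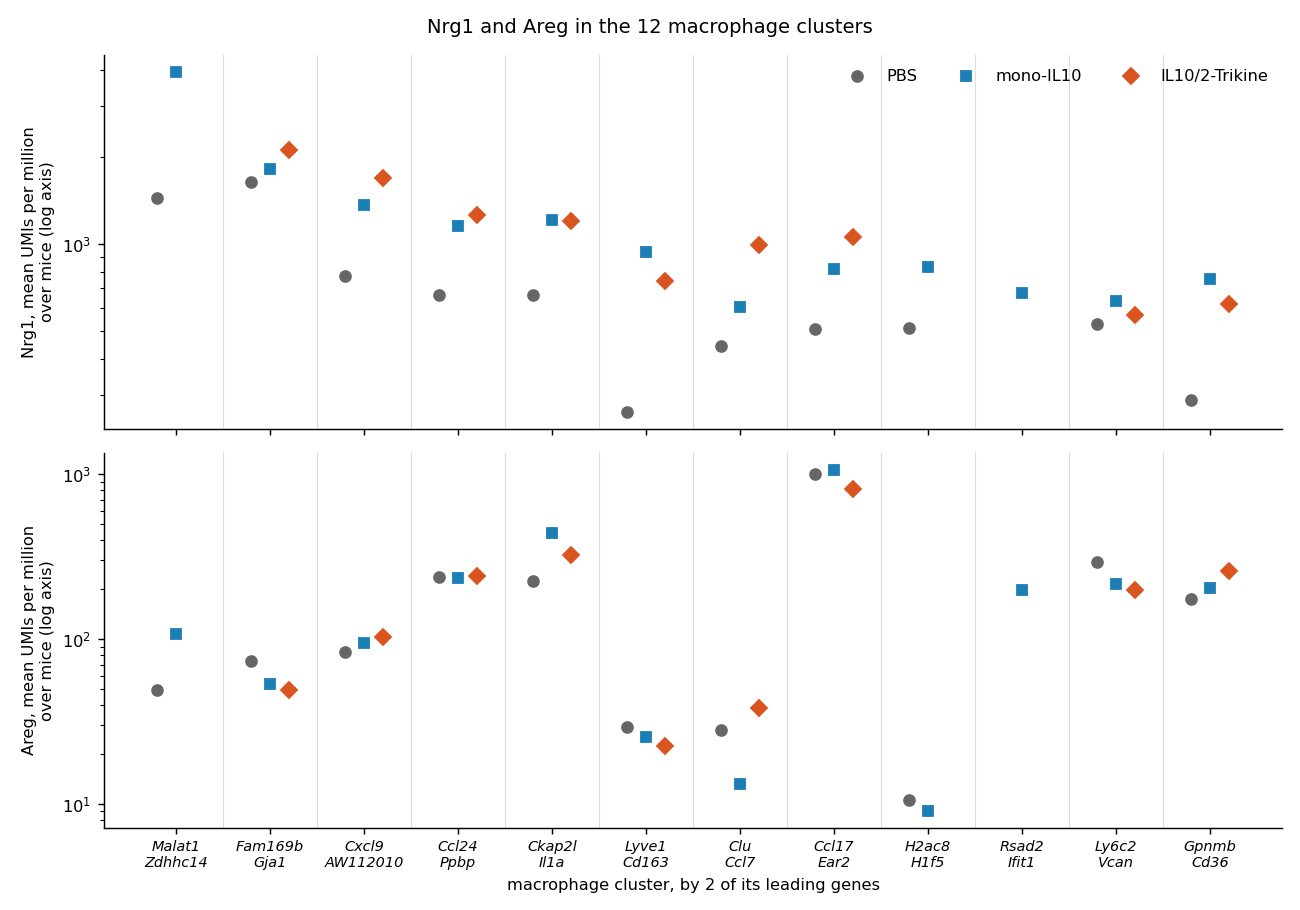
Mean Nrg1 and Areg over mice (CPM, log axis) in the 12 macrophage clusters, each marked by 2 of its leading genes, with a symbol for each treatment group that had enough mice. Nrg1 with PBS is below Nrg1 with mono-IL10 in every cluster where both are drawn, and Areg is highest in the cluster led by Ccl17 and Ear2 in all 3 groups.

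Cells with and without an Nrg1 UMI were compared within the macrophages. An Nrg1 UMI was found in 4665 of 8167 cells with PBS, 4637 of 6069 with mono-IL10 and 3377 of 5335 with IL10/2-Trikine. The genes most raised in the Nrg1-holding cells in all libraries were, by their lowest ratio, Tnfaip6 at 1.89, Pde10a at 1.84, Dgat1 and Tmtc2 at 1.51, Pgf at 1.5, Lpar1 at 1.47, Crem, Antxr2 and Pmvk at 1.45 and Pde4d at 1.44. Tnfaip6 encodes a hyaluronan-binding protein and Pde10a and Pde4d encode enzymes that degrade cyclic AMP. The Nrg1-holding cells were deeper, with medians of 5264, 6378 and 2872 UMIs against 4361, 4959 and 2561, and the part of depth in these ratios was not tested. Hbegf did not go with Nrg1 from cell to cell, with ratios of 0.986, 0.938 and 1.11 with PBS, mono-IL10 and IL10/2-Trikine. The ratios were 1.89, 1 and 0.972 for Areg and 1.13, 0.597 and 0.575 for Ereg.

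Across all 60 clusters the genes whose level was most like that of Nrg1 were Ctsc and Pla2g15 (Pearson r = 0.93 for both, log2(CPM + 1), 13352 genes compared), Gm44751, Rab7b and Lpar1, at r = 0.92 for the last 3. Ctsc and Pla2g15 encode lysosomal enzymes. The clusters share libraries and depth, so these values are descriptions. Nrg1 itself had r = −0.27 with Hbegf, −0.30 with Ereg and 0.10 with Areg.

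In neutrophils Nrg1 was lower with mono-IL10, and fewer mice were apart once cells that also held macrophage markers were left out. The PBS mice had 179, 88.3, 124, 64.3 and 338 CPM and the mono-IL10 mice 46.7, 27.2, 55.1, 48.7 and 26.9 CPM. Every mono-IL10 mouse was below every PBS mouse. Nrg1 fell by 1.83 on the log2 scale (SE 0.38, edgeR adjusted p = 0.00682). Of the 12 stress genes Fosb, at −0.81 (adjusted p = 0.00441), and Fos, at −0.51 (adjusted p = 0.0321), fell in the same neutrophils, and the 12 summed to 8000 to 10424 CPM per mouse with PBS and 7495 to 8813 CPM with mono-IL10. Their part was not tested. The macrophage markers C1qa, Adgre1 and Ms4a7 summed to 102 to 691 CPM per mouse with PBS and 144 to 263 CPM with mono-IL10, and macrophage RNA in the amount of these markers would carry 64.1 and 86.8 CPM of Nrg1 into the PBS and mono-IL10 libraries, against 113 and 43.1 CPM measured. With mono-IL10 the estimate from these markers was above the measured level, so it does not give the amount of carried RNA. When neutrophils with 2 or more UMIs of these markers were left out, an alternative chosen after seeing the data, the PBS mice had 45.9, 35.5, 155, 59.0 and 62.7 CPM and the mono-IL10 mice 18.8, 17.1, 17.1, 58.3 and 30.3 CPM. Then 4 of 5 mono-IL10 mice were below every PBS mouse, but Nrg1 was too low to be tested, so the call rests on a level that includes cells with macrophage markers. The named neutrophils were 2 clusters. The one with high Siglecf and Ltc4s was 34.9% of the cells with PBS and 57.5% with mono-IL10. Summed over the libraries, it had 52.1 CPM of Nrg1 and 234 CPM of Hbegf, and the other 83.4 and 143 CPM. In the other cluster, mean Nrg1 was 176 CPM over 5 PBS mice and 27.9 CPM over 4 mono-IL10 mice. In the Siglecf cluster it was 53.0 CPM over 4 mono-IL10 mice, the reverse of the summed order. Too few PBS mice had cells of the Siglecf cluster. The part of the cluster shares was not tested. With IL10/2-Trikine these clusters held 46 cells and no mouse had enough, and the library sum was 62.6 CPM (exact Poisson 95% interval 27.0 to 123, from 8 UMIs, counting error only). Unnamed clusters with S100a8 and S100a9 among their leading genes scored highest for macrophage or tumor cell markers and were not counted. They held 624, 643, 366 and 596 cells with PBS, 182, 295, 198 and 285 with mono-IL10 and 127, 67, 471 and 877 with IL10/2-Trikine. The 46 cells are thus not a measure of neutrophil abundance.

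Fibroblasts held Nrg1 at a level that did not pass the test in any comparison. It was 249 ± 48.4 CPM with PBS, 289 ± 72.0 with mono-IL10 and 261 ± 41.2 with IL10/2-Trikine (SD, n = 5). The log2 differences were 0.27 (SE 0.16, edgeR adjusted p = 0.658) for mono-IL10 and 0.03 (SE 0.16, adjusted p = 0.971) for IL10/2-Trikine against PBS. The fibroblast clusters ranged from 119 to 319 CPM. Macrophage RNA would carry 13.8 to 27.8 CPM into fibroblasts, below the 253 to 269 CPM of the library sums.

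Tumor cells had little Nrg1, and with IL10/2-Trikine it moved against the direction seen in macrophages. The PBS mice had 72.4, 66.8, 65.4, 86.2 and 65.0 CPM, the mono-IL10 mice 55.1, 61.9, 47.2, 61.3 and 64.3 CPM and the IL10/2-Trikine mice 56.6, 48.1, 52.9, 41.9 and 54.3 CPM. All mice of both cytokine groups were below all PBS mice. With IL10/2-Trikine Nrg1 fell by 0.45 on the log2 scale (SE 0.09, edgeR adjusted p = 0.00277), while mono-IL10 lay at −0.19 (SE 0.09, adjusted p = 0.237), which turned to 0.08 when cells with markers of another lineage were left out. Between the cytokines the log2 difference was −0.26 (SE 0.09, adjusted p = 0.0433), which did not pass when all mice were thinned to the same total (−0.20, adjusted p = 0.158), nor without mono-IL10 mouse 1, 2, 4 or 5 or IL10/2-Trikine mouse 2, 3 or 4. It passed in 15 of 23 alternatives. Within the 9 tumor cell clusters, mean Nrg1 over mice with IL10/2-Trikine was below PBS in 8 (median ratio 0.846), and below mono-IL10 in 5 and above it in 4 (median ratio 0.994). Macrophage RNA would carry 2.57 to 5.16 CPM of Nrg1 into tumor cells, against 48.7 to 70.3 CPM measured.

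The change with IL10/2-Trikine differed between tumor cells and macrophages of the same mice. The log2 ratio of Nrg1 in tumor cells over macrophages, with 1 CPM added, was −3.00 with PBS and −4.44 with IL10/2-Trikine, a difference of −1.44 (SE 0.23, n = 5 and 5), and all 5 IL10/2-Trikine mice were below all PBS mice. The PBS macrophage values in this ratio belong to the contrast by which Nrg1 was chosen, so the value is not independent of the choice. The exact two-sided permutation p was 0.00794, the smallest that 252 splits can give, and 0.0317 after Benjamini-Hochberg adjustment over the 4 members. The same difference was −0.55 (SE 0.26, exact adjusted p = 0.143) for Hbegf, 0.36 (SE 0.22, exact adjusted p = 0.169) for Areg and −0.67 (SE 0.52, exact adjusted p = 0.214) for Ereg.

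In Treg cells Nrg1 was at 0 in most mice. A single mouse in each group held a count, at 71.0 CPM with PBS, 17.9 with mono-IL10 and 90.3 with IL10/2-Trikine. These came from 1 to 2 UMIs per library.

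Hbegf, which encodes heparin-binding EGF-like growth factor, was led by tumor cells and lower there with IL10/2-Trikine. The PBS mice had 1249, 1254, 1170, 1105 and 1256 CPM, the mono-IL10 mice 1140, 1223, 1148, 1323 and 1206 CPM and the IL10/2-Trikine mice 884, 1021, 909, 939 and 1124 CPM. Of the IL10/2-Trikine mice, 4 were below every PBS mouse and all 5 below every mono-IL10 mouse. Hbegf fell by 0.27 against PBS (log2, SE 0.07, edgeR adjusted p = 0.00817) and by 0.37 against mono-IL10 (SE 0.07, adjusted p = 0.000526). The difference between mono-IL10 and PBS was 0.10 (SE 0.07, adjusted p = 0.419). The call against PBS was lost, at −0.23 and adjusted p = 0.0589, when cells with markers of another lineage were left out. The tumor epithelial markers moved with the ligands in these cells. They summed to 4428 to 5839 CPM per mouse with PBS, 4877 to 5621 CPM with mono-IL10 and 3918 to 4295 CPM with IL10/2-Trikine, and their part in the falls of the ligands with IL10/2-Trikine was not tested.

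The makeup of the tumor cells moved with the treatment as well. The 3 clusters with the most Ereg were together 38.9% of the tumor cells with PBS, 44.4% with mono-IL10 and 26.1% with IL10/2-Trikine. Summed over the libraries, they had the highest Hbegf of the 9 clusters, at 1702, 1134 and 1382 CPM. As means over mice with mono-IL10, the second of them had 1135 CPM, below a cluster led by Lcn2 and Ttr at 1229 CPM. The cluster lowest in Hbegf in the library sums, at 876 CPM, was led by Tff2 and Rbp4. It was 10.9%, 10.2% and 18.7% of the tumor cells with PBS, mono-IL10 and IL10/2-Trikine. By means over mice, this cluster was the lowest only with mono-IL10. With PBS it had 1049 CPM, above a cluster led by Ube2c and Cenpf at 975 CPM. With IL10/2-Trikine it had 832 CPM, again above the Ube2c cluster, at 772 CPM. Within clusters, mean Hbegf over mice with IL10/2-Trikine was below PBS in 9 of 9 (median ratio 0.821) and below mono-IL10 in 9 of 9 (median ratio 0.842). These counts have no test, and the part of the makeup in the differences of the whole class was not tested.

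Fibroblasts also had less Hbegf with IL10/2-Trikine than with mono-IL10. The level was 278, 172, 260, 266 and 147 CPM with PBS, 195, 219, 280, 246 and 312 CPM with mono-IL10 and 177, 127, 140, 212 and 151 CPM with IL10/2-Trikine. Here 4 of 5 IL10/2-Trikine mice were below every mono-IL10 mouse. The fall from mono-IL10 to IL10/2-Trikine was 1.68-fold (log2 −0.75, SE 0.18, edgeR adjusted p = 0.0258), and the difference from PBS was −0.52 (SE 0.18, adjusted p = 0.202). The former call was lost without mono-IL10 mouse 3 or 5 or IL10/2-Trikine mouse 2, 3 or 5. Of 12 stress genes such as Junb and Fos, 6 were higher with IL10/2-Trikine than with mono-IL10 in the same fibroblasts. The 12 summed to 9065 to 11313 CPM per mouse with mono-IL10 and 11554 to 13937 CPM with IL10/2-Trikine, and their part in the result was not tested.

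In macrophages Hbegf was 118, 123, 104, 118 and 138 CPM with PBS, 178, 174, 157, 139 and 195 CPM with mono-IL10 and 87.9, 190, 224, 96.6 and 153 CPM with IL10/2-Trikine. All mono-IL10 mice were above all PBS mice (log2 0.55, SE 0.17, no test), while the IL10/2-Trikine mice lay on both sides of them (0.28, SE 0.18, edgeR adjusted p = 0.313). Over clusters, the Lyve1 cluster had the highest mean with PBS and mono-IL10, at 247 and 253 CPM, and the cluster led by Cxcl9 the lowest, at 66.5 and 51.6 CPM. With IL10/2-Trikine the Lyve1 cluster was at 193 CPM and the highest mean, in another cluster, was 221 CPM.

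In neutrophils Hbegf was 117, 221, 80.0, 48.2 and 142 CPM with PBS and 246, 231, 216, 213 and 126 CPM with mono-IL10. The groups overlapped, with a log2 difference of 0.84 (SE 0.27, edgeR adjusted p = 0.083). Tumor epithelial markers summed to 27.6 to 75 CPM per mouse with PBS and 57.8 to 584 CPM with mono-IL10, and in the library sums, with all cells, tumor RNA would carry 25.7 and 26.9 CPM of Hbegf, against 126 and 219 CPM measured. The part of the markers in the difference was not tested. Without the neutrophils that held macrophage markers the PBS mice had 73.4, 142, 41.2, 53.1 and 170 CPM and the mono-IL10 mice 263, 231, 239, 221 and 141 CPM, and the difference of 1.3 passed (adjusted p = 0.011). With those cells kept, Hbegf also passed when mice were thinned to 1 total (edgeR adjusted p = 0.0325), without the filter on low counts (0.00322) and without PBS mouse 2 (0.0083) or mono-IL10 mouse 5 (0.041). In all, it passed in 5 of 18 alternatives, with edgeR or DESeq2 adjusted p from 0.00322 to 0.195. The alternatives that did not pass included DESeq2 and the fit without cells that held tumor epithelial markers. The cluster of neutrophils with the higher Hbegf, noted above, had the larger share with mono-IL10, and its part was not tested. The library sum of the IL10/2-Trikine neutrophils was 172 CPM (exact Poisson 95% interval 108 to 261). Treg cells held 0 to 53.7 CPM of Hbegf.

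Over clusters Hbegf was most like Gsto1 (r = 0.92), Dstn (0.91), Fosl1, Lurap1l and Tnfrsf12a (0.90 each). Fosl1 encodes a transcription factor that is a target of ERK signaling. Tumor cell clusters ranged from 876 to 1702 CPM, and the highest was led by Crisp1, Flnc and Mmp3.

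Ereg, led by tumor cells, was lower there with IL10/2-Trikine than with mono-IL10. The PBS mice had 103, 113, 118, 116 and 120 CPM, the mono-IL10 mice 146, 129, 134, 118 and 140 CPM and the IL10/2-Trikine mice 79.7, 112, 115, 87.3 and 118 CPM. Of the mono-IL10 mice, 4 were above every PBS mouse. Ereg fell by 0.44 from mono-IL10 to IL10/2-Trikine (log2, SE 0.09, edgeR adjusted p = 0.00218). Mono-IL10 lay 0.33 above PBS (SE 0.09, adjusted p = 0.053) and IL10/2-Trikine at −0.11 from PBS (SE 0.09, adjusted p = 0.442). The mono-IL10 difference did pass in 9 of 23 alternatives, with adjusted p from 0.00949 to 0.117. The share of the 3 clusters with the most Ereg had the same order as these levels. Those clusters were picked by their Ereg in the same cells, so the order is not independent of the levels. The part of the shares was not tested. Within clusters, mean Ereg was lower with IL10/2-Trikine than with mono-IL10 in 9 of 9 (median ratio 0.846) and higher with mono-IL10 than with PBS in 8 of 9 (median ratio 1.11). Against PBS, IL10/2-Trikine was lower in 6 and higher in 3 (median ratio 0.983).

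Ereg in macrophages was low, at 1.61, 2.26, 1.97, 1.02 and 2.34 CPM with PBS, 6.11, 7.30, 7.86, 1.34 and 4 CPM with mono-IL10 and 5.72, 6.30, 2.82, 0 and 4.24 CPM with IL10/2-Trikine. Of the IL10/2-Trikine mice 4 were above and 1 below every PBS mouse, and the log2 difference was 1.27 (SE 0.46, edgeR adjusted p = 0.0649). It passed in 5 of 23 alternatives. Mono-IL10 lay 1.60 above PBS (SE 0.38, no test). With 30 components and 40 clusters these differences were 0.32 and 0.22. Tumor RNA would carry 0.941 to 1.84 CPM into macrophages, against 1.98 to 5.52 CPM measured, and the part of carried RNA in the difference was not tested. In fibroblasts Ereg was 25.7 ± 14.3, 38.9 ± 23.1 and 30.2 ± 15.8 CPM (SD, n = 5), and no comparison passed, with adjusted p from 0.55 to 0.971. The clusters' Ereg was most like Ugdh and Fosl1 (r = 0.94 and 0.93), Cxcl5, Adgrl3 and Inava, and Ereg and Hbegf had r = 0.83 with each other.

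Among the 5 cell classes Areg had its highest mean in Treg cells. A macrophage cluster led by Ccl17, described below, had similar means, at 1008, 1061 and 816 CPM with PBS, mono-IL10 and IL10/2-Trikine. Areg in Treg cells was 1651, 1563, 2261, 324 and 550 CPM in the 5 PBS mice, 2740, 1673, 812 and 1161 CPM in 4 mono-IL10 mice and 1629, 124 and 316 CPM in 3 IL10/2-Trikine mice. All groups overlapped. The log2 difference was 0.40 (SE 0.52, edgeR adjusted p = 0.926) for mono-IL10 and −0.66 (SE 0.64, adjusted p = 0.791) for IL10/2-Trikine against PBS, and −1.06 (SE 0.64, adjusted p = 0.467) between the cytokines. The differences moved widely when a mouse was left out, from 0.01 to 0.82, from −2.43 to −0.15 and from −2.84 to −0.56 in the same order, the largest falls being those without IL10/2-Trikine mouse 1. There were 64, 58 and 37 Treg cells per library. An Areg UMI was found in 54.7%, 44.8% and 45.9% of them. Tumor RNA would carry 3.71 to 11.2 CPM of Areg into Treg cells, against 758 to 1778 CPM in the library sums.

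In tumor cells Areg rose with mono-IL10 and fell with IL10/2-Trikine. The PBS mice had 347, 424, 397, 328 and 394 CPM, the mono-IL10 mice 490, 388, 503, 425 and 495 CPM and the IL10/2-Trikine mice 314, 322, 273, 270 and 331 CPM. All IL10/2-Trikine mice were below all mono-IL10 mice, and 4 of 5 mice of each cytokine group lay outside the PBS range. The log2 difference was 0.38 (SE 0.09, edgeR adjusted p = 0.0263) for mono-IL10 and −0.29 (SE 0.09, adjusted p = 0.0388) for IL10/2-Trikine against PBS, and Areg fell 1.59-fold between the cytokines (log2 −0.67, SE 0.09, adjusted p = 7.37e-05). The mono-IL10 call was lost without PBS mouse 1 or 4 or mono-IL10 mouse 1, 3 or 5. The call of IL10/2-Trikine against PBS was lost without PBS mouse 2, 3 or 5 or IL10/2-Trikine mouse 3 or 4, and when mice were thinned to 1 total (−0.25, adjusted p = 0.0681). Summed over the libraries, Areg ranged from 232 CPM in the tumor cluster with Lcn2 and Ttr to 584 CPM in the one led by Phgr1, Tff2 and Tff1, of which Tff1 and Tff2 encode trefoil peptides of the gastric mucosa. As means over PBS mice, the Lcn2 cluster had 244 CPM, above a cluster led by Cxcl11 and Cxcl10 at 236 CPM. The Lcn2 cluster was 18.1%, 13.7% and 21.3% of the tumor cells with PBS, mono-IL10 and IL10/2-Trikine, and the cluster led by Prl2c2 and Csf2, with 545 CPM, was 9.1%, 10.3% and 4.56%. Within clusters, mean Areg with IL10/2-Trikine was below mono-IL10 in 9 of 9 (median ratio 0.687) and below PBS in 8 of 9 (median ratio 0.811), and with mono-IL10 it was above PBS in 9 of 9 (median ratio 1.19). The part of the cluster shares was not tested.

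The macrophage class had less Areg with IL10/2-Trikine, but not once 1 cluster with genes of dendritic cells was left out. The PBS mice had 378, 323, 212, 211 and 339 CPM, the mono-IL10 mice 300, 268, 273, 164 and 122 CPM and the IL10/2-Trikine mice 182, 216, 204, 133 and 159 CPM. Of the IL10/2-Trikine mice 4 were below every PBS mouse. Areg fell 1.64-fold against PBS (log2 −0.71, SE 0.22, edgeR adjusted p = 0.0283), and mono-IL10 lay at −0.30 (SE 0.21, no test). The call was lost without PBS mouse 1, 2 or 5 or IL10/2-Trikine mouse 1, 4 or 5 (adjusted p from 0.0536 to 0.0729), and with 30 components and 40 clusters in place of 40 and 60 (−0.56, adjusted p = 0.0832). Areg was concentrated in 1 cluster, led by Ccl17, Ear2, Plet1, Dcstamp, Areg, Irf4, Ccr7, Ramp3, Csta2 and P2ry10, at 1060 CPM. Ccl17, Plet1, Irf4 and Ccr7 are also expressed by dendritic cells, and Ccl17, Plet1 and Ccr7 led the type 2 conventional dendritic cells (cDC2) of these data. The cluster had 8 of 8 macrophage markers at 20 CPM or more, with a sum of 5280 CPM against 8379 CPM in the other macrophage clusters and 2295 CPM in cDC2. Its cDC2 markers, 4 of 6 at 20 CPM or more, summed to 517 CPM against 219 and 1175 CPM, with Flt3 at 2.74 and Zbtb46 at 4.45 CPM. The cluster was 15.5% of the macrophages with PBS, 4.93% with mono-IL10 and 5.21% with IL10/2-Trikine. Within clusters Areg was higher with IL10/2-Trikine than with PBS in 5 and lower in 4, with a median ratio of 1.03. Without the Ccl17 cluster, an alternative chosen after seeing the data, Areg was 151, 152, 89.9, 67.7 and 111 CPM with PBS, 157, 165, 196, 146 and 105 CPM with mono-IL10 and 143, 159, 149, 75.3 and 121 CPM with IL10/2-Trikine. The difference between IL10/2-Trikine and PBS then turned to 0.19 (edgeR adjusted p = 0.614), and that of mono-IL10 to 0.51 (no test). Nrg1 rose by 0.94 in the same fit. Tumor RNA would carry 3.48 to 5.69 CPM of Areg into macrophages, against 185 to 302 CPM in the library sums.

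In fibroblasts Areg was 24.2, 3.97, 6.79, 13.9 and 21.7 CPM with PBS, 31.9, 9.47, 58.6, 24.7 and 34.5 CPM with mono-IL10 and 66.4, 38.9, 26.7, 28.9 and 58.4 CPM with IL10/2-Trikine. All IL10/2-Trikine mice were above all PBS mice, but the log2 difference of 1.67 (SE 0.45, edgeR adjusted p = 0.0816) did not pass, nor did that of 1.37 with mono-IL10 (SE 0.43, adjusted p = 0.223). Tumor RNA would carry 7.32, 4.38 and 10.3 CPM into fibroblasts with PBS, mono-IL10 and IL10/2-Trikine, against 12.7, 26.5 and 32.4 CPM in the library sums. The tumor epithelial markers summed to 105 ± 57.5, 54.0 ± 77.0 and 188 ± 53.3 CPM in fibroblasts (SD, n = 5), and their part in the Areg values was not tested. Neutrophil Areg, at 6.89 to 105 CPM with PBS and 9.82 to 238 CPM with mono-IL10, was too low to be tested, and the library sum with IL10/2-Trikine was 102 CPM (exact Poisson 95% interval 54.1 to 174). Over clusters Areg was most like Galnt3 (r = 0.82), Kcnn4, Tnip3, Fcor and Tpi1.

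The promoter of Areg is shown because this gene was called in all 3 comparisons of tumor cells, and because it was the only member with a promoter in the RefSeq table for GRCm38.p6. The 150 bases before its start, on the plus strand at chr5:91139449-91139598, hold TGACGTCA, the full cyclic AMP response element, 61 bases before the start and TATAAA 31 bases before it, both in capitals.
Areg promoter: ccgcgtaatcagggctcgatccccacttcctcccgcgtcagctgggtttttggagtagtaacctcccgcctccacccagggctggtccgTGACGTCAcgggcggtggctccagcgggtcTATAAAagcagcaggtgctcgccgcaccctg
Searched on both strands in windows of the same length, TGACGTCA was in 447 of 32851 promoters (1.36%) and TATAAA in 2488 (7.57%). A match describes the letters and not a bound site.

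The calls of the members are counted here for each comparison. The number of tests was not the same in each class, and the macrophage comparisons with mono-IL10 were not tested. The counts are therefore not compared between classes. In macrophages 2 of 4 passed between IL10/2-Trikine and PBS, where 18% of 12093 genes passed. These were Nrg1, which was higher, and Areg, which was lower but not without the Ccl17 cluster. The Nrg1 call shares its PBS mice with the contrast by which Nrg1 was chosen. In neutrophils 1 of 2 tested members passed between mono-IL10 and PBS, where 5.04% of 2697 genes passed. In tumor cells 1 of 4 passed between mono-IL10 and PBS against 4.94% of 14953 genes, 3 of 4 between IL10/2-Trikine and PBS against 20.7%, and 4 of 4 between the cytokines against 31.9%, all 4 lower with IL10/2-Trikine. The last count was 3 in the 8 alternatives in which Nrg1 did not pass. The comparisons with PBS share the PBS mice. In fibroblasts 0 of 4 passed for mono-IL10 against PBS (edgeR, 1 at an unadjusted p under 0.05, 0 by DESeq2, which gave no adjusted p for 2) against 0.0994% of 8052 genes, 0 of 4 for IL10/2-Trikine against PBS (2 unadjusted, 0 by DESeq2, again without an adjusted p for 2) against 0.956%, and 1 of 4 between the cytokines against 4.25%. In Treg cells Areg was the only member tested and was called in 0 of the comparisons by edgeR, unadjusted p and DESeq2 alike, where 0% of 861 genes passed for mono-IL10 against PBS, 0.348% for IL10/2-Trikine against PBS and 0% between the cytokines.

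**Figure D3:**
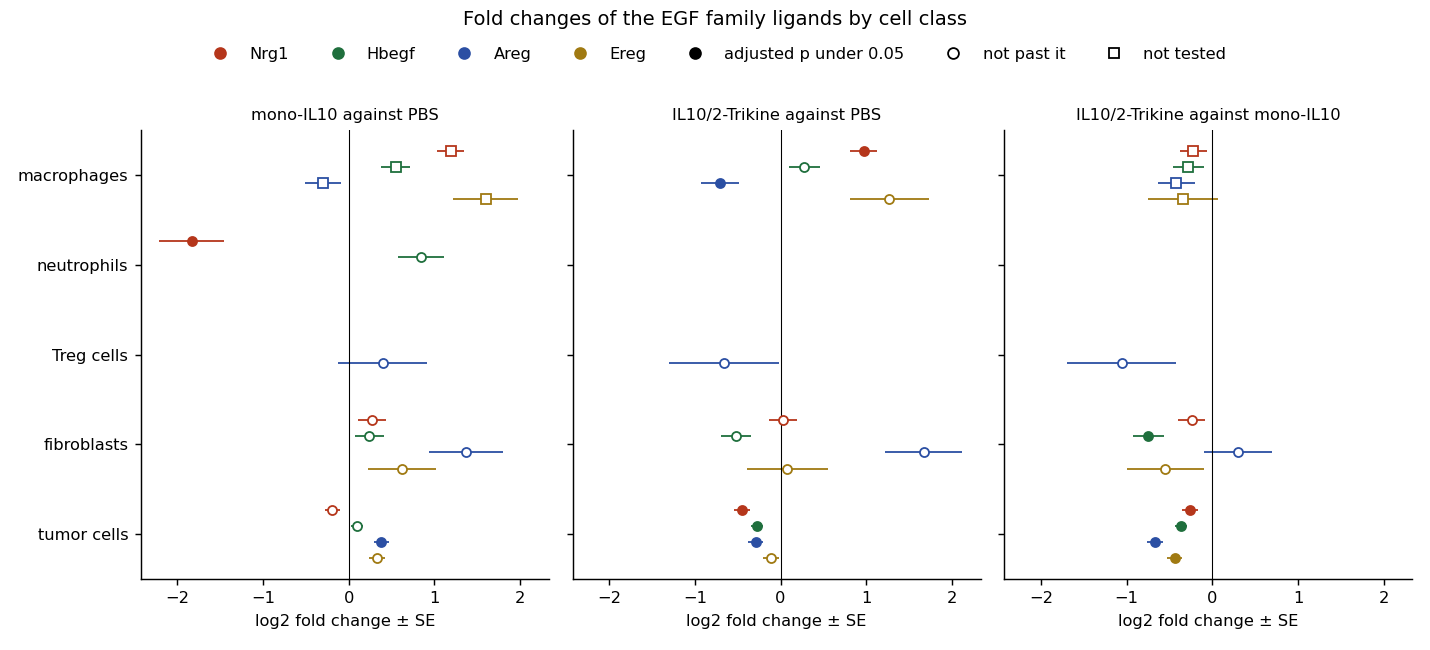
Log2 fold change of each ligand in each cell class (rows) and comparison (panels), with lines for the SE of the edgeR fit. Filled circles passed the adjusted threshold, open circles did not, and open squares mark the macrophage comparisons with mono-IL10, which were not tested because they chose the members. In tumor cells all 4 ligands lie below 0 between the cytokines.

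Of the receptors, Egfr was found in fibroblasts and tumor cells. It was 171 ± 46.1, 153 ± 40.4 and 141 ± 27.9 CPM in fibroblasts with PBS, mono-IL10 and IL10/2-Trikine (SD, n = 5), and 37.4 ± 2.08, 34.8 ± 2.17 and 28.6 ± 2.15 CPM in tumor cells. Egfr fell in tumor cells with IL10/2-Trikine against both PBS (log2 −0.34, SE 0.06, edgeR adjusted p = 0.000502) and mono-IL10 (−0.34, SE 0.06, adjusted p = 0.000301). Erbb2, whose product binds no ligand but pairs with the other receptors, was 19.7 ± 1.17, 17.3 ± 1.42 and 21.6 ± 1.42 CPM in tumor cells and rose between the cytokines (0.25, SE 0.06, adjusted p = 0.00365). Erbb3, a receptor of Nrg1, was 8.59 ± 0.839, 7.21 ± 1.94 and 8.61 ± 1.74 CPM in tumor cells and under 0.5 CPM in fibroblasts. Erbb4 was at 0 in fibroblasts and at most 0.0501 CPM, as a group mean, in tumor cells. In macrophages the group means of all receptors were under 2 CPM, so that the cells with the most Nrg1 held little receptor RNA.

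**Figure D4:**
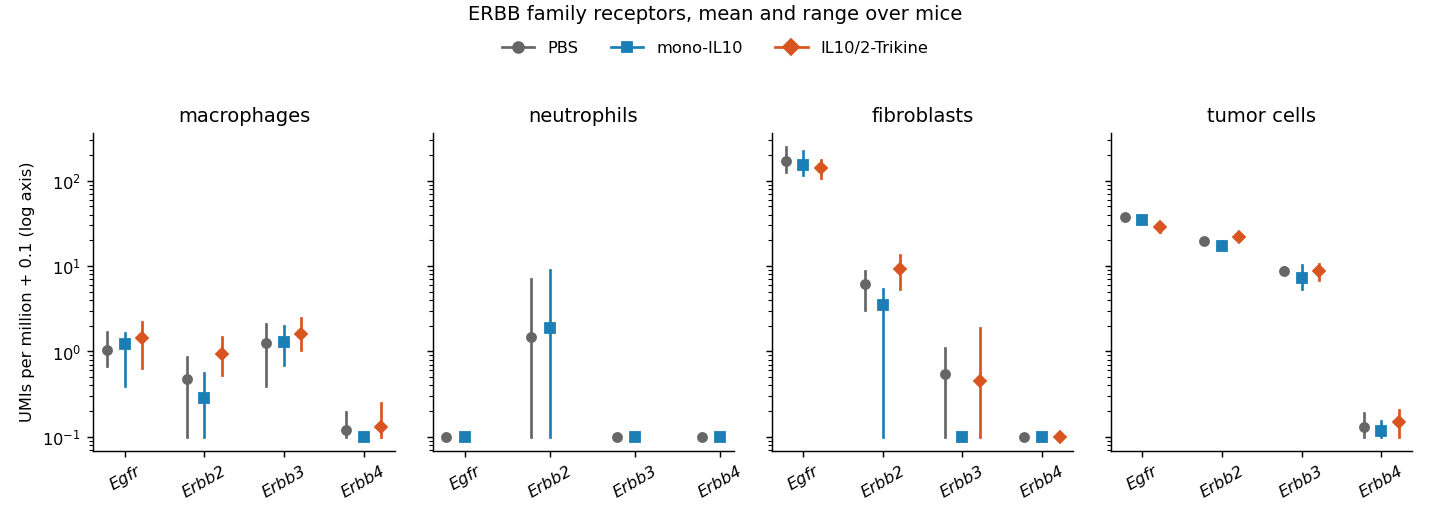
Level of the ErbB receptor genes (CPM with 0.1 added, log axis) in 4 cell classes, with a symbol for the mean and a line for the range over the mice of a treatment group. Egfr is highest in fibroblasts and next in tumor cells, Erbb2 and Erbb3 are highest in tumor cells, and Erbb4 is at or near 0 in all classes.

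A list of 44 other genes of the pathway (receptors, ligands, shedding enzymes, feedback inhibitors and ERK targets) was counted beside the members. In tumor cells 14 of 40 tested genes rose and 9 fell from mono-IL10 to IL10/2-Trikine, 5 rose and 9 fell against PBS, and 1 rose and 2 fell with mono-IL10 against PBS, where 31.9%, 20.7% and 4.94% of all genes passed. The median log2 difference of the list was 0.13 between the cytokines, where that of all genes was 0.02. Of 8 ERK targets 4 fell and 1, Etv5, rose between the cytokines, and of 14 feedback inhibitors 3 fell and 4 rose. Between the cytokines Fosl1 fell by 0.86 (SE 0.10, edgeR adjusted p = 2.35e-05), Dusp4 by 0.74, Plaur by 0.65, Dusp5 by 0.45 and Ier3 by 0.43, whereas Egf was higher by 0.76 and Spry2, an inhibitor of ERK signaling, by 0.44. Egf was very low, at 0.505 CPM with mono-IL10 and 0.815 CPM with IL10/2-Trikine in the library sums. Outside the 8 largest differences and chosen after its value was seen, Etv5 was higher by 0.27 (SE 0.06, adjusted p = 0.00288), and Dusp6, a phosphatase induced by ERK, lay at 0.12 (adjusted p = 0.0796). Against PBS Dusp4 fell by 0.65 (SE 0.07, adjusted p = 2e-05), Fosl1 by 0.45, Plaur by 0.42 and Dusp5 by 0.36, with Nrg4, another ligand of ErbB4, higher by 0.49 and Spry2 by 0.48. With mono-IL10 against PBS Fosl1 rose by 0.41 (SE 0.10, adjusted p = 0.0287), and Adam8 and Bace1, both proteases, fell by 0.40 and 0.19. Of the 12 stress genes, 4 were lower with mono-IL10 than with PBS, 2 higher and 1 lower with IL10/2-Trikine against PBS, and 3 higher between the cytokines. Summed, they were 6996 to 9237, 6068 to 7893 and 7077 to 7851 CPM per mouse with PBS, mono-IL10 and IL10/2-Trikine, and their part was not tested.

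In macrophages 6 of 32 tested genes of the list rose and 7 fell with IL10/2-Trikine against PBS, where 18% of all genes passed. Of 7 ERK targets 2 rose and 3 fell, and of 12 feedback inhibitors 2 rose and 3 fell. The inhibitory ubiquitin ligase gene Cblb rose by 1.3 (SE 0.25, edgeR adjusted p = 0.00101), Bace1 by 0.89, Adam9 by 0.54 and Myc by 0.51. Fosl1 fell by 0.75, Ccnd1 by 0.65, Plaur by 0.62 (SE 0.07, adjusted p = 5.36e-06) and Errfi1, an inhibitor of the EGF receptor, by 0.52. Bace1 and Fosl1 were low, at 1.33 and 5.29 CPM with PBS and 2.43 and 2.96 CPM with IL10/2-Trikine in the library sums. Outside the 8 largest differences and chosen after their values were seen, Adam17, the main releasing enzyme of Areg, Hbegf and Ereg, fell by 0.21 (SE 0.06, adjusted p = 0.0212), and Etv5 and Dusp6 rose by 0.50 (adjusted p = 0.000478) and 0.31 (adjusted p = 0.00979). Of the stress genes 4 of 12 were lower, among them Hspa1a by 0.96, with sums of 8927 to 10537 CPM with PBS and 8914 to 10730 CPM with IL10/2-Trikine. In fibroblasts 0 of 34 tested genes passed for mono-IL10 against PBS by edgeR, Phlda1 fell by 0.76 (SE 0.15, adjusted p = 0.0251) with IL10/2-Trikine against PBS, and between the cytokines Dusp4 fell by 2.22 (SE 0.41, adjusted p = 0.00759), Myc by 0.81, Phlda1 by 0.62 and Adam12 by 0.35. In neutrophils 0 of 11 and in Treg cells 0 of 2 tested genes passed by edgeR.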

How the data were processed

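CD45+ cells isolated with beads from tumors of 15 mice (5 per treatment, 3 libraries) had been sequenced with a 5′ droplet kit and hashtag antibodies. The authors deposited UMI counts per gene and barcode, made with Cell Ranger 9.0.1 on GRCm39 without normalization, and a table of T and NK cells with their mouse, cluster and the percent of mitochondrial UMIs as deposited. A further 7858 rows of it belong to a group outside these samples and were not used.

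Barcodes under 1000 genes or over 10% mitochondrial UMIs were dropped. Hashtags were called with Seurat 5.3.0, and cells called doublets were left out. The 2000 most variable genes, without the 4 members, gave 40 components and 60 k-means clusters (scikit-learn 1.9.0). Clusters were named from the marker lists, by rules set after the clusters had been inspected, and Treg cells came from the authors' annotation. A difference from the study may come from rebuilt names. UMIs were summed per mouse and class (at least 20 cells, 5 for Treg cells) and tested on all genes with edgeR 4.0.16 (R 4.3.3) by the quasi-likelihood test, with TMM factors, filterByExpr, the 3 groups in 1 fit and Benjamini-Hochberg adjustment over all genes (threshold 0.05). A fold change is on the log2 scale. Permutation tests were exact and two-sided (scipy 1.17.1). Intervals of single counts are exact Poisson (95%) and cover counting error only. RNA carried from another class was estimated as the level of that class times the ratio of its markers in both classes. This estimate is rough, since it was above the measured level in some cases. For Nrg1 it was 86.8 against 43.1 CPM and 136 against 62.6 CPM in neutrophils with mono-IL10 and IL10/2-Trikine. In Treg cells it was 19.6 against 4.48 CPM with PBS and 29.8 against 4.64 CPM with mono-IL10, but 14.2 against 18.9 CPM with IL10/2-Trikine. The procedure was tested on simulated data.

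The members and gene lists were chosen with earlier results of these data known. Genes named are the 4 members in every class, the receptors, genes of the pathway list past the threshold (up to 8 by fold), the 5 genes most like a member over clusters, and the leading genes of clusters. A few pathway genes beyond the largest 8, and clusters other than the one highest in Nrg1, were chosen after their values were seen. Alternatives were DESeq2 1.42.0 with its size factors, no filter on low counts, other cell filters and clusterings, thinning, mixed cells left out, each mouse left out and, added after seeing the data, cells with macrophage markers and the Ccl17 cluster left out.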

Additional observations from a re-analysis of the deposited data

Results flagged for a closer look

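In groups of 4 or 5 mice, 6 of 49 tested groups held a mouse apart from the others. The rule flags every group in which a single mouse holds a count and the others 0. This was so for Ereg in neutrophils and Nrg1 in Treg cells, so the number of flags cannot be set against chance. Hbegf in neutrophils was 126 CPM in mono-IL10 mouse 5 and 213 to 246 CPM in the others. Areg in neutrophils was 238 CPM in mono-IL10 mouse 2 and 9.82 to 35.9 CPM in the others. Ereg in neutrophils was 4.91 CPM in mono-IL10 mouse 1 and 0 in the others. Nrg1 in fibroblasts was 331 CPM in PBS mouse 1 and 210 to 244 CPM in the others. Nrg1 in Treg cells was 71.0 CPM in PBS mouse 2 and 17.9 CPM in mono-IL10 mouse 1, and 0 in the other mice of each group.

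The Nrg1 difference between IL10/2-Trikine and PBS differed between cell classes, by −1.44 on the log2 scale for tumor cells minus macrophages (exact permutation p = 0.00794, adjusted 0.0317), with all 5 IL10/2-Trikine mice below all 5 PBS mice. Its PBS macrophage values belong to the contrast by which Nrg1 was chosen, so it is not independent of the choice.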

How the results depend on the processing

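The rise of Nrg1 in macrophages with IL10/2-Trikine against PBS passed in all 24 alternatives (log2 0.68 to 1.05), and its fall in tumor cells in all 23 (−0.50 to −0.39). The macrophage fits all reuse PBS mice of the contrast by which Nrg1 was chosen, so they are not independent of the choice. The fall of Areg in macrophages with IL10/2-Trikine against PBS reversed to 0.19 without the Ccl17 cluster, and was the only called result to change direction in the alternatives run. The count of called members changed in macrophages, IL10/2-Trikine against PBS, to 1 with 30 components and 40 clusters or without the Ccl17 cluster, to 3 with no filter, at most 5% mitochondrial UMIs or mixed cells left out, and to 1 to 3 leaving out mice. In neutrophils it was 2 without the low-count filter and 1 to 2 leaving out mice, and Nrg1 could not be fitted after thinning or without cells holding macrophage markers. In fibroblasts it was 1 (mono-IL10) and 2 (IL10/2-Trikine) against PBS without the filter, and 0 to 1 between the cytokines leaving out mice. In tumor cells, mono-IL10 against PBS, it was 2 with DESeq2, its size factors, no filter, mixed cells left out or 40 clusters, and 0 to 2 leaving out mice. Against PBS and mono-IL10, the count with IL10/2-Trikine in tumor cells was 2 to 3 and 3 to 4 over the alternatives. The untested log2 difference of Nrg1 between the cytokines in macrophages was −0.60 with cells of 2000 or more genes, and −0.36 to −0.14 leaving out mice. Causes were not tested. Neutrophils had too few cells of 2000 or more genes for a fit. No paired analysis was possible because hashtag numbers name different mice in each library. Treatment and library cannot be told apart. Treg cells numbered 37 to 64 per library, and Ereg in macrophages could not be fitted after thinning.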
